A study of Mus musculus with 2 samples.

Results

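Enzymes of the tricarboxylic acid cycle were described in liver RNA of apolipoprotein E-deficient mice fed oleanolic acid, a plant triterpenoid. They were chosen by gene name: every probe set annotated to a single symbol among Cs, Idh3a, Idh3b, Idh3g, Ogdh, Dlst, Suclg1, Fh1 and Mdh2 was taken, which gave 17 probe sets for 9 genes, of 12393 genes with such a probe set. The oleanolic acid array carried pooled liver RNA of male mice fed a semipurified Western diet that held 0.01% oleanolic acid over 11 weeks, to give 10 mg per kg daily. The control array carried pooled liver RNA of male mice fed the Western diet alone for 11 weeks. All animals lacked apolipoprotein E, had a C57BL/6J background and were labelled 2 months old. The growth text of the control sample also names oleanolic acid, so the groups follow the titles and the diet labels. How many mice each pool held is not given in the sources used here. Each diet has 1 array, so no p-value was computed and each difference describes these 2 arrays only.

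The cycle runs in the mitochondrial matrix. It oxidizes the acetyl group of acetyl-CoA to carbon dioxide and passes the electrons to the respiratory chain. In hepatocytes it also exchanges intermediates with gluconeogenesis, amino acid breakdown and fatty acid synthesis. Cs encodes citrate synthase, which joins acetyl-CoA and oxaloacetate. Idh3a, Idh3b and Idh3g encode the subunits of the NAD-dependent isocitrate dehydrogenase, with the catalytic site on the alpha subunit. Ogdh and Dlst encode the first and second components of the 2-oxoglutarate dehydrogenase complex. Suclg1 encodes the alpha subunit shared by both succinyl-CoA ligases, Fh1 fumarase and Mdh2 mitochondrial malate dehydrogenase.

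Promoter windows, from 250 bases before to 50 after an annotated start, came from RefSeq (build GRCm38.p6), and 8 of the 9 genes, all but Idh3a, matched by symbol. The windows of Cs, the gene with the highest ratio below, and of Idh3b and Idh3g, whose subunits share an enzyme with that of Idh3a, are shown 5′ to 3′ on the coding strand. Capitals mark matches on either strand to the core GCGCNTGCG of NRF1, the core CCGGAAG of the ETS factor GABP, CCAAT, or the GC box GGGCGG. NRF1 and GABP are known activators of nuclear genes for mitochondrial proteins. The Cs window lies at chr10:128337477-128337776 (plus strand), that of Idh3b at chr2:130284402-130284701 (minus strand) and that of Idh3g at chrX:73786848-73787147 (minus strand).
Cs: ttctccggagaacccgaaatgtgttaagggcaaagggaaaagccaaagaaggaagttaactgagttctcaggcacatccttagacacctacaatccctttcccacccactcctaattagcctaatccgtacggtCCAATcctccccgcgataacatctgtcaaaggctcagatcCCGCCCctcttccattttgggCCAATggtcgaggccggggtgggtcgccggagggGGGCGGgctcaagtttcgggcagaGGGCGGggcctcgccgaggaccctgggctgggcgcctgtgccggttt
Idh3b: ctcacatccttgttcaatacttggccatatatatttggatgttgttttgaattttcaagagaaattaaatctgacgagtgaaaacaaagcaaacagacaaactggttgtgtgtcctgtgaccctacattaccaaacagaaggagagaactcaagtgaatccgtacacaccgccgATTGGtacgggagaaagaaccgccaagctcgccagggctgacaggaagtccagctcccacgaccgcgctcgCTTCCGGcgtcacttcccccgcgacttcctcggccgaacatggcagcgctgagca
Idh3g: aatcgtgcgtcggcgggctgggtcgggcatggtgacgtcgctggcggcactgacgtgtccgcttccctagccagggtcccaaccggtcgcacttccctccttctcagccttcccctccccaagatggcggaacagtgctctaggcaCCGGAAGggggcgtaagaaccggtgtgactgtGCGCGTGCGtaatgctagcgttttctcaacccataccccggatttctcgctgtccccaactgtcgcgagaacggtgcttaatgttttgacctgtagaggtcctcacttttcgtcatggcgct

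The Cs window held 2 CCAAT and 3 GC box matches and none of the other cores. In the Idh3b window there was 1 GABP core and 1 CCAAT match. The Idh3g window had 1 NRF1 core and 1 GABP core. Over all windows of the 8 genes, 2 genes had an NRF1 core, 3 a GABP core, 4 a CCAAT and 5 a GC box match. Among all 32851 windows of this length, the shares with a match were 6.31% for NRF1, 8.86% for GABP, 37.4% for CCAAT and 35.7% for the GC box. Ogdh has 6 overlapping or neighbouring windows, so a gene counts once if any of its windows matched. The shares over all windows count each window singly, so they are not like for like with the gene counts. A match is a run of letters and does not show that a factor binds there.

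Most cycle enzymes had nearly the same signal on both arrays. The log2 ratio of a gene is oleanolic acid over control, averaged over its measured probe sets, those reaching the array median on at least 1 array. All 9 genes and 16 of the 17 probe sets were measured, and the gene ratios lay between -0.70 and 0.22. Their median was -0.08, against 0.0012 for all 7137 measured genes. The submitters' design names a log2 ratio beyond 1.5 in either direction, which 0 of the 9 cycle enzymes and 0.392% of all measured genes passed. Beyond 1 in either direction there were 0 of 9 cycle enzymes and 1.02% of all genes. Below -0.5 there was 1 cycle enzyme, Idh3a, against 3.24% of all genes, and above 0.5 there were 0 of 9, against 2.63%. Within 0.5 of 0 there were thus 8 of 9, against 94.1%. Idh3a passed -0.5 only with a dim probe set that counted as measured through the control array alone. Its brightest probe set was at -0.44. Below 0 there were 6 of 9 cycle enzymes, against 49.7% of all genes. Apart from Idh3a, the 8 other ratios lay inside the range from -0.56 to 0.51 that holds the central 95% of all measured genes.

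**Figure D1:**
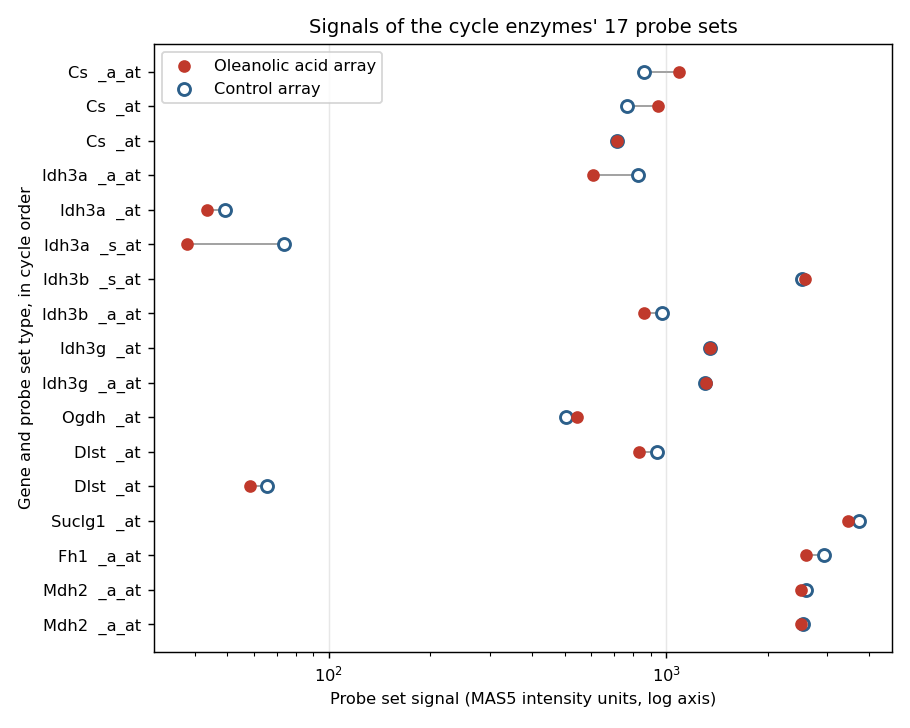
Signal of each of the 17 probe sets (horizontal log axis, MAS5 intensity units) on the oleanolic acid array (filled red) and the control array (open blue), with the probe set type after the gene name. The points of Idh3g and Mdh2 nearly coincide, while all 3 Idh3a probe sets have the red point on the left; positions of different probe sets are not comparable as levels.

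Cs, at the entry of the cycle, had the highest ratio of the 9 genes. Its _a_at probe set, a type that detects several transcripts of 1 gene, had a signal of 1093.1 on the oleanolic acid array and 860.4 on the control array. A second probe set had 944.9 on the oleanolic acid array and 765.9 on the control array, and the third 716.7 on the oleanolic acid array and 715.2 on the control array. The first and second were thus higher with oleanolic acid, by log2 ratios of 0.35 and 0.30, and the third was level at 0.0030. The gene value was 0.22 ± 0.19 (SD, n = 3 probe sets), or 1.16-fold. This is 1.16 times its own spread between probe sets. Of the 1785 genes in the brightest of 4 signal bands, where Cs lies, 15.8% had a ratio at least as far from 0.

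Idh3a had the lowest ratio, and each of its probe sets was lower on the oleanolic acid array. Its brightest probe set had a signal of 606.4 on the oleanolic acid array against 824.5 on the control array, a log2 ratio of -0.44. An _s_at probe set, a type that can detect transcripts of more than 1 gene, had 38.0 on the oleanolic acid array against 73.4 on the control array, a log2 ratio of -0.95. The oleanolic acid value of that probe set lies below the array median of 59.3, and its control value just above the median of 61.5. It thus counted as measured through the control array alone, and a probe set that enters this way always has a ratio below 0. The third probe set had 43.4 on the oleanolic acid array and 49.3 on the control array (log2 ratio -0.18) and was too dim to count as measured. From the measured pair, the gene value was -0.70 ± 0.36 (SD, n = 2 probe sets), a level 1.62-fold lower with oleanolic acid. The brightest probe set alone gives -0.44, inside the central 95% of all measured genes. Both of its signals exceed 594.2, where the brightest signal band begins. The central 95% of genes in that band is narrower, -0.36 to 0.45, and -0.44 lies outside it. Both ranges are of gene ratios, some of them averages over several probe sets, and so are not like for like with 1 probe set. Among all measured probe sets, 4.965% had a ratio at or below that of this probe set. The gene value of Idh3a, averaged with the dim probe set, falls in a dimmer band. Of the 1784 genes in that dimmer band, 1.74% had a ratio at least as far from 0 as -0.70. In bulk RNA of a pool, fewer cells of a type and less RNA per cell cannot be told apart.

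The partner subunits of Idh3a had ratios closer to 0, by a margin that depended on its dim _s_at probe set. For Idh3b, the brighter probe set, of the _s_at type, had 2578.4 on the oleanolic acid array and 2536.5 on the control array (log2 ratio 0.02). The dimmer Idh3b probe set had 859.1 with oleanolic acid and 973.5 in the control (-0.18), so the probe sets lay on opposite sides of 0. The Idh3b value was -0.08 ± 0.14 (SD, n = 2 probe sets). Idh3g had 1349.9 on the oleanolic acid array and 1345.8 on the control array by 1 probe set. By the other, it had 1314.0 on the oleanolic acid array and 1299.9 on the control array. Its value of 0.01 ± 0.0079 (SD, n = 2 probe sets) was the closest to 0 of the 9 genes. The ratio of Idh3a was lower than that of Idh3b by a log2 difference of -0.62 (combined probe set SD 0.39) and lower than that of Idh3g by -0.71 (0.36). These SDs come from pairs of probe sets and are themselves imprecise, so neither difference is clear of the probe set error. Between Idh3b and Idh3g the difference was -0.09 (0.14), within the probe set error. The differences of Idh3a were smaller when its dim probe set was held at a floor or left out. With the floor at the array median they were -0.30 to Idh3b and -0.39 to Idh3g, and without _x_at and _s_at probe sets -0.26 and -0.45, with Idh3b itself then at -0.18. These differences compare ratios between arrays, not the amounts of the subunits.

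**Figure D2:**
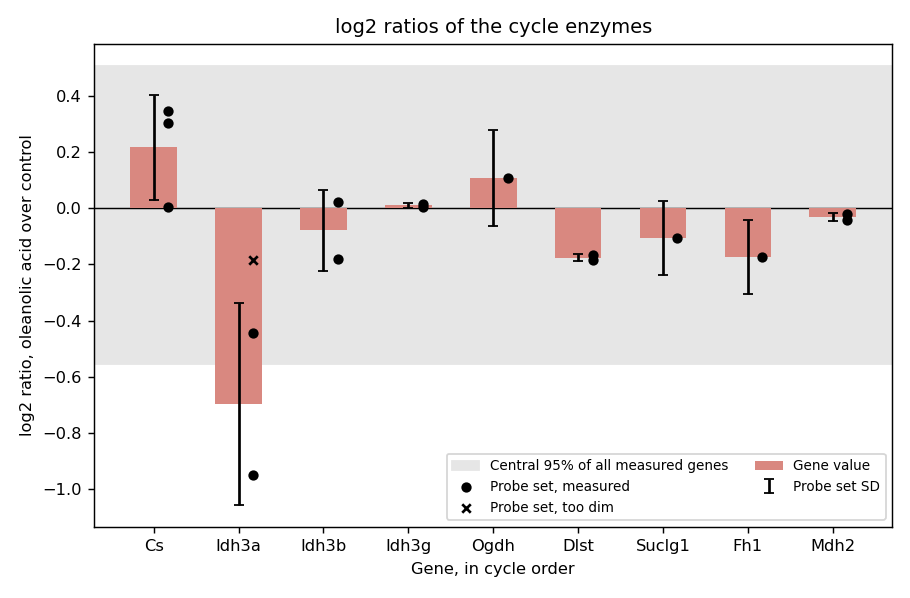
Log2 ratio, oleanolic acid over control, of each gene in cycle order (bars), with the probe set SD (whiskers) and each probe set (dots; the cross is the dim Idh3a probe set). The grey band is the central 95% of all measured genes, -0.56 to 0.51, and only the bar of Idh3a reaches beyond it.

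The components of the 2-oxoglutarate dehydrogenase complex lay on both sides of 0. Ogdh, its first and substrate-binding component, was reported by 1 probe set with 545.2 on the oleanolic acid array and 506.5 on the control array. This is a log2 ratio of 0.11, smaller than the pooled SD between probe sets of its signal band, 0.17. Dlst, the succinyltransferase core, had 829.3 on the oleanolic acid array and 941.6 on the control array by its brighter probe set. Its dimmer probe set, close to the array medians, had 58.4 on the oleanolic acid array and 65.6 on the control array. These Dlst probe sets gave like ratios of -0.18 and -0.17, and the gene value was -0.18 ± 0.01 (SD, n = 2 probe sets). An SD from a pair of probe sets is itself imprecise, and the pooled SD of genes in the signal band of Dlst was 0.25, larger than its ratio. The ratio of Ogdh was higher than that of Dlst by 0.28 (combined probe set SD 0.17). This combined SD rests on the imprecise 0.01 of Dlst and would be larger with the 0.25 of its signal band. The difference is therefore not clear of the probe set error.

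Of the later steps, Suclg1, Fh1 and Mdh2 were slightly lower on the oleanolic acid array. Succinate dehydrogenase, another later step, is given below and had subunits on both sides of 0. Suclg1 had a signal of 3462.5 on the oleanolic acid array and 3729.0 on the control array, a log2 ratio of -0.11 (signal band SD 0.13). For Fh1 the signals were 2607.8 on the oleanolic acid array and 2943.6 on the control array, a log2 ratio of -0.17 (signal band SD 0.13). Mdh2, the last step, had 2515.9 with oleanolic acid and 2591.8 in the control by 1 probe set. The other Mdh2 probe set had 2506.0 with oleanolic acid and 2543.2 in the control. The Mdh2 value was -0.03 ± 0.02 (SD, n = 2 probe sets). For Suclg1 the ratio was smaller than the probe set error and for Fh1 it was 1.32 times that error. Of the genes in the brightest band, 22.1% were at least as far from 0 as Fh1, 42.4% as far as Suclg1 and 81.4% as far as Mdh2.

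**Figure D3:**
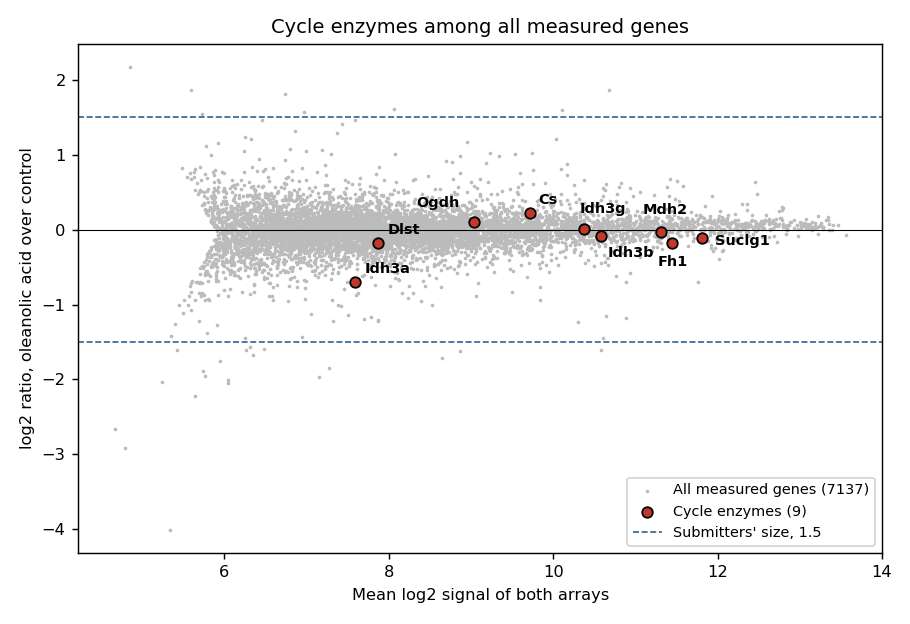
Log2 ratio, oleanolic acid over control, against the mean log2 signal of both arrays for 7137 measured genes (grey) and the 9 cycle enzymes (red, named), with dashed lines at the submitters' size of 1.5. Idh3a, at -0.70, is the red point farthest from 0, and 6 of the 9 lie in the brightest signal band.

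Other enzymes of the cycle were read from a list of 15 genes, of which 12 were measured and the other 3 were not analysed here. All 12 lay within 0.5 of 0, 6 above and 6 below, with a median of -0.0086. These counts are near the shares among all measured genes, 94.1% within 0.5 of 0 and 49.7% below 0. Dld, the third component of the 2-oxoglutarate dehydrogenase complex, was at -0.14 (signal band SD 0.13), near the value of Dlst. The beta subunits that pair with Suclg1 were Suclg2, the GDP-forming one, at -0.23 and Sucla2, the ADP-forming one, at -0.03, each with a signal band SD of 0.13. Succinate dehydrogenase, which feeds electrons to the respiratory chain, had its catalytic subunits Sdha at -0.08 ± 0.06 (SD, n = 2 probe sets) and Sdhb at 0.02. Its membrane anchors Sdhc and Sdhd had the highest values of the list, 0.30 ± 0.29 and 0.27 ± 0.22 (SD, n = 2 probe sets each). The probe sets of Sdhc disagreed. Its _x_at probe set, a type open to cross-hybridization, had 378.4 on the oleanolic acid array and 267.7 on the control array, a log2 ratio of 0.50. The brighter Sdhc probe set had 1362.1 with oleanolic acid and 1274.6 in the control (0.10). For Sdhd the _x_at probe set gave 0.43 and the brighter probe set 0.12. Related enzymes of the matrix or the cytosol were near 0: the NADP-dependent Idh2 of the matrix at 0.01, cytosolic Idh1 at -0.07 ± 0.03 (SD, n = 2 probe sets), cytosolic Mdh1 at 0.09 ± 0.05 (SD, n = 3 probe sets) and cytosolic aconitase Aco1 at -0.09 ± 0.04 (SD, n = 2 probe sets). The proton-driven transhydrogenase gene Nnt, which is mutated in the C57BL/6J strain, was at 0.03 ± 0.11 (SD, n = 2 probe sets).

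Genes for the entry of pyruvate, which supplies acetyl-CoA to Cs, were led by Pdk4, and the others lay closer together. Of 13 listed genes 7 were measured, with a median of -0.19, 3 above 0 and 4 below. Among all measured genes 49.7% lay below 0 and 2.63% above 0.5. Pdk4, a kinase that switches the pyruvate dehydrogenase complex off, was alone past 0.5, with 147.5 on the oleanolic acid array and 77.3 on the control array (log2 ratio 0.93, signal band SD 0.27). The 6 others lay between -0.33 and 0.09. Another such kinase, Pdk1, had the lowest ratio, -0.33 ± 0.08 (SD, n = 2 probe sets). The genes for the subunits of the first component of the complex, Pdha1 and Pdhb, were at -0.26 ± 0.15 and -0.24 ± 0.16 (SD, n = 2 probe sets each).

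Among 17 measured genes of 23 listed for carbon entering or leaving the cycle, all lay within 0.5 of 0, 7 above and 10 below, with a median of -0.06, which is near the shares of 94.1% within 0.5 and 49.7% below 0 among all measured genes. The lowest were the cytosolic aspartate aminotransferase gene Got1 (-0.47) and Acly, which splits exported citrate in the cytosol, at -0.46 ± 0.30 (SD, n = 3 probe sets). Pck1, which draws on oxaloacetate for gluconeogenesis, was at -0.25, and the malic enzyme gene Me1 at -0.19 ± 0.29 (SD, n = 2 probe sets). Of the ketogenesis list, 2 of 4 genes were measured, Acat1 at 0.12 ± 0.07 (SD, n = 3 probe sets) and Bdh1 at 0.04 ± 0.09 (SD, n = 2 probe sets). For regulators of mitochondrial genes, 11 of 12 were measured, 2 above 0 and 9 below, with a median of -0.06 and none past 0.5. With the brightest probe set of each gene alone this median was -0.20. The coactivator genes Ppargc1b and Ppargc1a were lowest, at -0.47 (signal band SD 0.17) and -0.46 ± 0.15 (SD, n = 5 probe sets), followed by the nuclear receptor genes Ppara (-0.34) and Esrra (-0.33).

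**Figure D4:**
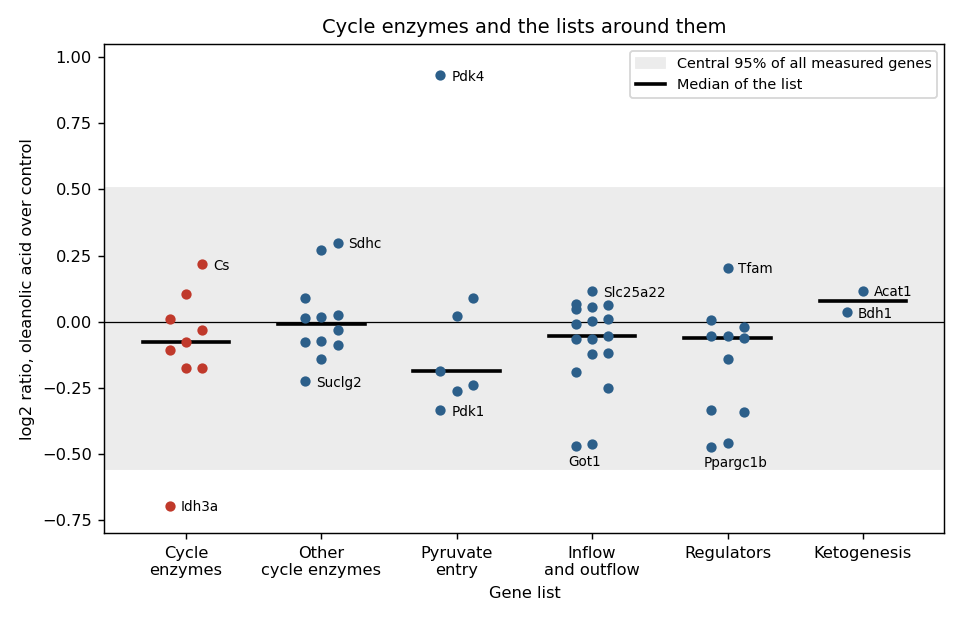
Log2 ratio, oleanolic acid over control, of each measured gene in the cycle enzymes (red) and 5 lists around them (blue), with list medians as black lines and the lowest and highest gene named. Nearly all points lie in the grey band that holds the central 95% of all measured genes; Idh3a (-0.70) and Pdk4 (0.93) lie outside it.

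Markers checked the tissue and other cell types. All 8 hepatocyte markers were measured, with summed signals of 74010 on the oleanolic acid array and 71640 on the control array. Of 10 brown fat and muscle markers, tissues rich in cycle enzymes, only 4 were measured: Ucp1, Cox8b and Fabp4 were lower and Elovl3 higher on the oleanolic acid array. Of the 6 dim genes, 4 were lower and 2 higher. The summed signals of all 10 were 3473 with oleanolic acid and 1639 in the control. Without Elovl3, which liver also expresses, they were 346.9 with oleanolic acid and 779.4 in the control. The defining gene Ucp1 had 1.0 on the oleanolic acid array and 76.4 on the control array, and Cox8b had 9.5 on the oleanolic acid array and 64.0 on the control array. Ucp1 and Cox8b reached the median on the control array alone, so the filter fixed their direction among the measured genes. Exocrine pancreas markers were lower in 8 of 8 genes, against 49.7% of all measured genes, with sums of 831.6 with oleanolic acid and 1532 in the control. Without Cela1, the member with the brightest signal, they were 272.9 with oleanolic acid and 912.8 in the control, and the 7 log2 ratios lay between -2.04 and -1.38. Signals of these 7 were at most 51.6 on the oleanolic acid array, below its median of 59.3. They counted as measured through the control array alone, so the filter fixed their direction. Macrophage markers were lower in 7 of 7 genes, against the same 49.7%, with sums of 9855 with oleanolic acid and 10660 in the control. Of these 7 ratios, 6 lay between -0.18 and -0.06, with probe set SDs of 0.13 to 0.18, and Marco was at -0.67 (signal band SD 0.25). B and plasma cell markers, with 2 of 5 genes measured and both of these lower, summed to 235.7 with oleanolic acid and 1069 in the control. Of these 2, Jchain (43.8 with oleanolic acid, 133.9 in the control) counted as measured through the control array alone. Without Ighm the B and plasma cell markers summed to 122.0 with oleanolic acid and 229.3 in the control, with 2 genes higher and 2 lower. T and NK cell markers, with 1 of 5 genes measured, summed to 106.9 with oleanolic acid and 155.3 in the control, and endothelial markers to 2458 with oleanolic acid and 2438 in the control. The measured T and NK cell gene, Ms4a4b (38.5 with oleanolic acid, 69.5 in the control), likewise entered through the control array alone. Stellate cell markers, with 4 of 6 genes measured, summed to 5005 with oleanolic acid and 5034 in the control. Cholangiocyte markers, with 1 of 4 genes measured, summed to 111.3 with oleanolic acid and 120.6 in the control. For erythroid markers, with 1 of 3 genes measured, the sums were 389.6 with oleanolic acid and 406.0 in the control. The part of these tissues and cell types in the ratio of Idh3a was not tested. The signal at the 3′ end over that at the 5′ end, a sign of RNA integrity, was 0.78 on the oleanolic acid array and 0.76 on the control array for Gapdh. For beta-actin it was 1.79 on the oleanolic acid array and 1.71 on the control array. The pyruvate carboxylase control gave 12.1 on the oleanolic acid array and 12.6 on the control array, and the 18S control 0.56 on the oleanolic acid array and 0.47 on the control array. For the transferrin receptor control it was 3.79 on the oleanolic acid array and 1.0 on the control array, from signals of 1.9 to 7.2 units that all lie below the floor of their array.

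The ratios of most cycle enzymes varied little with the processing, and that of Idh3a varied most. Over 9 alternative settings Idh3a ranged from -0.69 to -0.38, and in 4 of them 0 of the 9 genes passed 0.5 in either direction. Cs stayed between 0.21 and 0.35. Idh3b ranged from -0.18 to 0.02, a wide range beside its reported ratio. It was at 0.02 with its brightest probe set alone and below 0 in the 8 other settings.

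**Figure D5:**
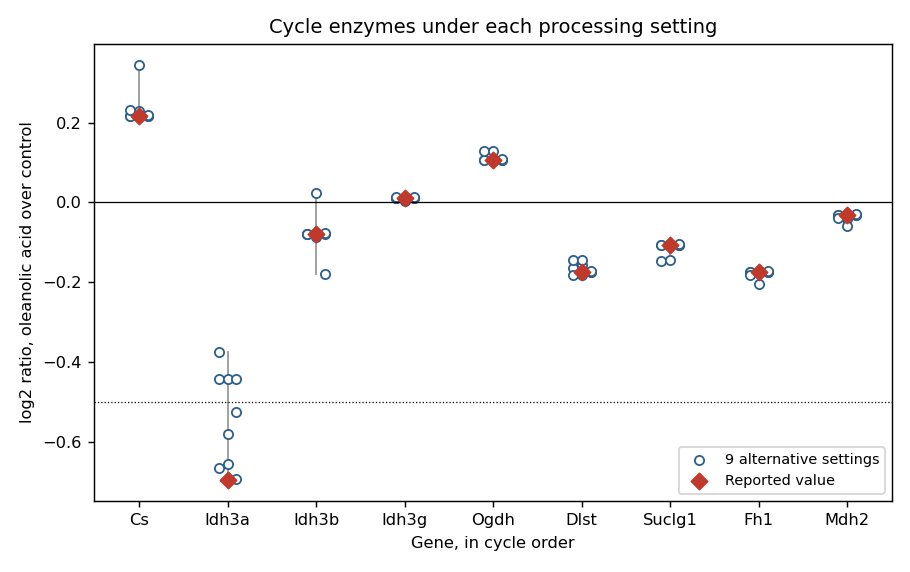
Log2 ratio, oleanolic acid over control, of each cycle enzyme as reported (red diamond) and under 9 alternative settings (open circles), with a dotted line at -0.5. Idh3a spans -0.70 to -0.38 and crosses the dotted line, Idh3b crosses 0 in 1 setting, and the 7 others keep their side of 0.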

How the data were processed

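The authors deposited 1 linear intensity per probe set and array. MAS5 is the tool that the submitters' processing notes name, with no version. Per the labels' protocols, cRNA was labelled with biotin. With 2% trimmed at each end, the mean intensity was 300.1 on both arrays, so they were not rescaled. The values used here hold no detection calls. Of 22690 probe sets, 64 Affymetrix controls were left out. Of the others, 20380 carried 1 gene symbol, 691 several and 1555 none in the platform annotation. All 9 member symbols matched the RefSeq gene table by gene identifier.

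Low signals were set to the array's 25th percentile (10.1 with oleanolic acid and 10.7 in the control), and log2 was taken. A probe set counted as measured when it reached its array's median (59.3 with oleanolic acid, 61.5 in the control) on at least 1 array, leaving 7137 genes. The error of a gene is the SD between its measured probe sets or, with 1, the pooled SD of genes in its signal band (4 bands of equal gene number). It covers probe error and not variation between mice, and the number of arrays limits the precision. The ratio step was tested on simulated data for brighter genes only, by the median over many genes. It is thus no check on Idh3a and Dlst, which are dimmer, or on the error of a single ratio. Python 3.11.15, numpy 2.4.6, pandas 2.3.3 and statsmodels 0.14.6 were used.

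The cycle enzymes and all lists were chosen with earlier results of these data known. Every cycle enzyme with all its probe sets was named, with every measured gene of the other cycle enzymes, and from each further list at most 4 genes with the largest absolute ratio. Marker sums use the brightest probe set of each gene, without floor. The marker sums without Elovl3, without Cela1 and without Ighm were added after seeing the data. No gene was named for likeness of pattern, since 2 arrays give 1 difference per gene. Alternatives changed the floor, the filter on dim probe sets, the summary per gene and the normalization.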

Additional observations from a re-analysis of the deposited data

How the results depend on the processing

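The 9 alternatives were a floor at the array median, a pseudocount of 16, no filter on dim probe sets, a filter on both arrays, the brightest probe set alone, no _x_at and _s_at probe sets, quantile normalization, intensity-dependent centring and median centring. The count of cycle enzymes past an absolute log2 ratio of 0.5 was 1 as reported. It was 0 with the floor at the array median, with both arrays at or above the median, with the brightest probe set alone and without _x_at and _s_at probe sets, because Idh3a then lay between -0.44 and -0.38. In these settings its dim _s_at probe set is left out or held at the floor. The median of the cycle enzymes ranged from -0.11 to -0.04 and that of all measured genes from -0.08 to 0.01. The -0.08 came only from the setting with no filter on dim probe sets. Probe sets at the floor of both arrays have a log2 ratio of -0.08 and enter there. In the other settings the median of all measured genes lay between -0.0026 and 0.01. The median of the regulators was -0.20 with the brightest probe set alone, and its range was -0.20 to -0.04. The other list medians moved by less than the pooled probe set SD divided by the square root of the number of genes. Of 81 recomputed ratios of cycle enzymes, 76 moved by less than the gene's probe set SD, which is wide for Idh3a. The other 5 were 4 values of Dlst (-0.16, -0.16, -0.14 and -0.14) and 1 of Mdh2 (-0.06), without a change of sign. No paired analysis was possible because each diet has 1 pooled array. Leaving out a replicate was likewise not possible. With 1 array per diet, no difference here can be told from variation between pools.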
